A study of Drosophila melanogaster with 2 samples.

Results

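Polycomb group genes encode the subunits of chromatin complexes that keep developmental genes silent, and 10 of them were examined for occupancy by a tagged transcription factor in the fly embryo. They are ph-p, ph-d, Pc, Psc, Su(z)2, Sce, pho, E(z), esc and Scm, out of 13968 protein-coding genes in the Ensembl annotation. All 10 were found in the annotation by symbol. The set was chosen by the heights of peaks in these data, since ph-p was known to carry one of the highest, so their counts and heights are descriptions and were not tested. The data are chromatin immunoprecipitation followed by sequencing from 1 group, Drosophila melanogaster whole embryos of 6 to 24 h, in 2 biological replicates. The stage is that of the sample source, and a separate age entry, whose number is too large for an embryo, was set aside. The embryos came from a transgenic line that stably expresses Fer3, a basic helix-loop-helix transcription factor, with GFP at its C terminus, and the antibody recognised GFP. The labels do not say what drives the fusion protein, at what level it is made, or in which cells, so each value is an average over the cells of whole embryos. No untagged line or second condition was analysed here.

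As background, Polycomb proteins act in 2 main complexes. Polycomb repressive complex 2 methylates histone H3 through its catalytic subunit E(z), and Polycomb repressive complex 1 binds that mark and ubiquitylates histone H2A. Their classic targets in the fly embryo are the Hox genes, which they keep off outside their proper segments. The complexes are brought to DNA at Polycomb response elements, in part by the DNA-binding protein Pho.

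A peak is a stretch of the genome where the authors' caller found more signal than in 1 control alignment shared by both replicates, and its summit is the highest base. The authors' signal value gives a peak's height in units that are not stated, so it was compared only within a list, as a value, a ratio or a rank from the highest. The replicate lists and the pooled list, made from both replicates together, each held 30000 peaks. The list thresholded by the irreproducible discovery rate, called reproducible here, held 5636. The lists give no read counts, so the depth behind each value is unknown. A peak was assigned to every gene that contained its summit or lay within 5 kb of it. Coordinates are on dm6.

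Fer3-GFP peaks lay at 7 of the 10 Polycomb genes in the reproducible list, and at ph-p the peak was among the highest of the genome. The members with a reproducible summit were ph-p, ph-d, Pc, Psc, Su(z)2, E(z) and Scm, and those without were Sce, pho and esc. Among all protein-coding genes the share with a reproducible summit was 54.0%, so nothing about the members was read from their count. A pooled summit was found at 9 members, against 80.8% of all genes. Replicate 1 had a summit at 9 members, against 86.0% of all genes, and replicate 2 at 8 members, against 79.4% of all genes. The members held 17 distinct reproducible peaks, 55 pooled peaks, 54 replicate 1 peaks and 63 replicate 2 peaks. Of the 55 pooled peaks, 30 passed a deposited q of 0.05 (54.5%), against 44.5% of the whole pooled list. The corresponding shares were 51.9% against 29.7% in replicate 1 and 60.3% against 57.5% in replicate 2.

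**Figure D1:**
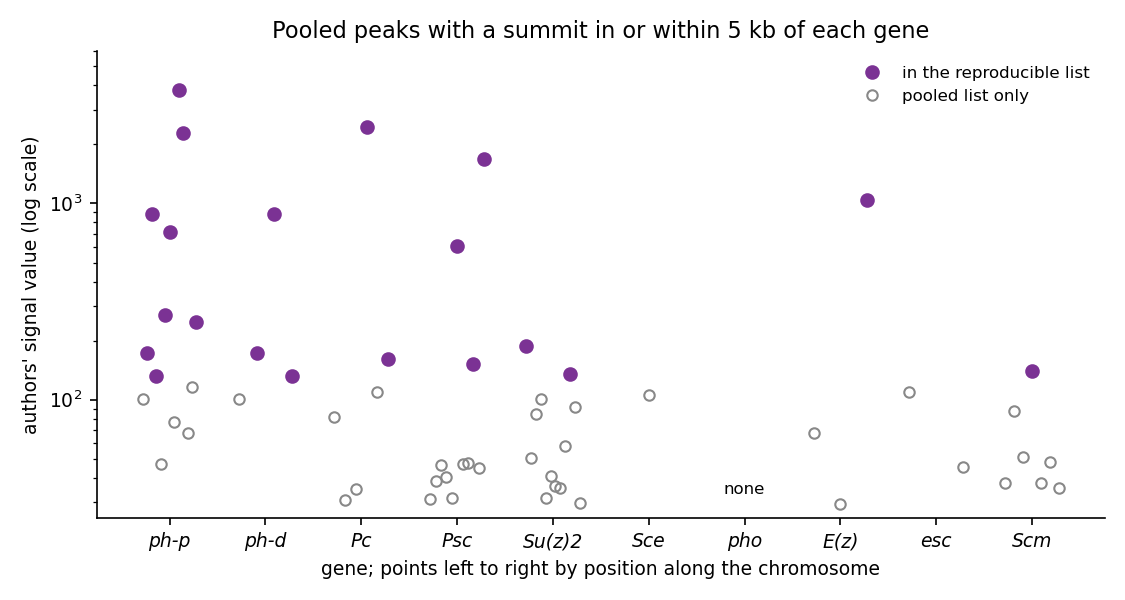
Each point is a pooled peak with its summit in or within 5 kb of the gene on the x axis, at the authors' signal value on a log y axis, with filled points also in the reproducible list and open points in the pooled list only. The highest points stand at ph-p (3786), Pc (2450.5), Psc (1681) and E(z) (1039), and pho has none. The 3 reproducible peaks of ph-d also lie within 5 kb of ph-p and are drawn at both genes.

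The core of Polycomb repressive complex 1 consists of Ph, Pc, Psc and Sce. Ph carries a SAM domain, through which the protein polymerises, and flies have 2 adjacent copies of its gene, ph-p (proximal) and ph-d (distal). Both copies lie on the minus strand of chromosome X, ph-p at 2126210-2138371 and ph-d at 2115727-2123286, and 2924 bp separate the ph-d start from the end of ph-p. Of the 17 reproducible peaks, 8 had their summit in ph-p or within 5 kb of it, and 57 protein-coding genes (0.408%) had at least as many. That share takes no account of gene length, and ph-p has 12162 bp against a median of 2164.5 bp for protein-coding genes. Divided at the middle of the gap between the genes, 5 of the 8 fell on the ph-p side and 3 on the ph-d side. In the pooled list 9 fell on the ph-p side and 4 on the ph-d side, in replicate 1 these numbers were 8 and 4, and in replicate 2 they were 11 and 4. The sides are unequal, since ph-p is longer than ph-d (7560 bp). The ph-p side also takes in summits nearest to starts of another gene, D2hgdh, which in the pooled list were 2140685, 2141250 and 2142082.

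The highest ph-p peak had a signal value of 3786 in the pooled list (rank 7), 1499.7 in replicate 1 (rank 7) and 2331 in replicate 2 (rank 7). The highest ph-d peak had 883 in the pooled list (rank 310), 349 in replicate 1 (rank 282) and 521 in replicate 2 (rank 340). The ph-p peak was therefore the higher one in each list, and its rank was the same in all 3. The ratio of ph-p to ph-d was 4.29 in the pooled list, 4.29 in replicate 1 and 4.47 in replicate 2, or 4.38 ± 0.125 over the replicates (SD, n = 2). Of all protein-coding genes, 28 (0.200%) had a reproducible peak at least as high as that of ph-p, and 924 (6.62%) one at least as high as that of ph-d. The second ph-p peak also stood above the highest ph-d peak in each list, with 2293 in the pooled list (rank 36), 889 in replicate 1 (rank 32) and 1420.0 in replicate 2 (rank 36). Its ratio to the highest ph-d peak was 2.64 ± 0.126 (SD, n = 2). The copies were chosen with these heights known, so the differences are a description and no test was made.

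The copies share much of their sequence, so their bases were aligned with each other. The alignment gave 5 blocks in the same order. Block 1, the longest, covers 4404 bp of ph-p and 4455 bp of ph-d at 92.0% identity, and block 2 covers 59 bp of each at 91.5%. Block 3 holds the ph-d start at 2123286 and the ph-p start at 2136855, which fall on the same aligned base, and is 90.7% identical. Upstream of these starts follow block 4 (70.5% identical) and block 5 (81.0%). Both high ph-p summits lay upstream of the matched start and between blocks, not in them. The highest, at 2137340, lay 485 bp upstream, in a ph-p stretch of 208 bp between blocks 3 and 4 where ph-d has 15 bp, and no list had a ph-d summit there. The second, at 2137901, lay 1046 bp upstream of the matched start and 470 bp inside the outermost ph-p start at 2138371. It fell in a 98 bp stretch between blocks 4 and 5. The highest ph-d summit, at 2124078 and 792 bp upstream, fell between the same blocks, in the 209 bp that ph-d has in that place. The summits of both replicates lay in the same stretches as the pooled ones. Only summits were placed in this way, and the peak intervals reached into the blocks on either side. The interval of the highest ph-p peak, 2137159-2137551, reached into blocks 3 and 4. That of the second, 2137696-2138108, and that of the highest ph-d peak, 2123920-2124389, reached into blocks 4 and 5.

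The stretches that hold these summits are printed because the copies differ in them. They were read from the RefSeq genome of the same build, plus strand, 5′ to 3′, while both genes run on the minus strand. Capitals mark E-boxes (CANNTG), the sites that basic helix-loop-helix proteins bind.
ph-p between blocks 3 and 4, chrX:2137265-2137472: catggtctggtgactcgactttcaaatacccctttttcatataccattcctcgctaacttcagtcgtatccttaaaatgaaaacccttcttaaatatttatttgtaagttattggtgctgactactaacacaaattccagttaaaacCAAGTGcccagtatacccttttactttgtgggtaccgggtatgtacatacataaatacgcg
ph-d between blocks 3 and 4, chrX:2123697-2123711: taaaatacccgagac
ph-p between blocks 4 and 5, chrX:2137856-2137953: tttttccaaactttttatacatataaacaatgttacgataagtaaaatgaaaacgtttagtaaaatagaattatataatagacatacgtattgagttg
ph-d between blocks 4 and 5, chrX:2124053-2124261: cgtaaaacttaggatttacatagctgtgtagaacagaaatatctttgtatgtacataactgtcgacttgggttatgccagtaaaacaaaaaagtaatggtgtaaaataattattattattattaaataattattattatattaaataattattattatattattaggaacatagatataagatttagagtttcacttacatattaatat
The longest ph-p stretch held 1 E-box, CAAGTG, and it lay outside the 101 bp window centred on the summit. The other 3 stretches held none. The stretches between blocks 4 and 5 were both poor in G and C, at 21.4% in ph-p and 21.1% in ph-d, and that of ph-p between blocks 3 and 4 had 37.5%.

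**Figure D2:**
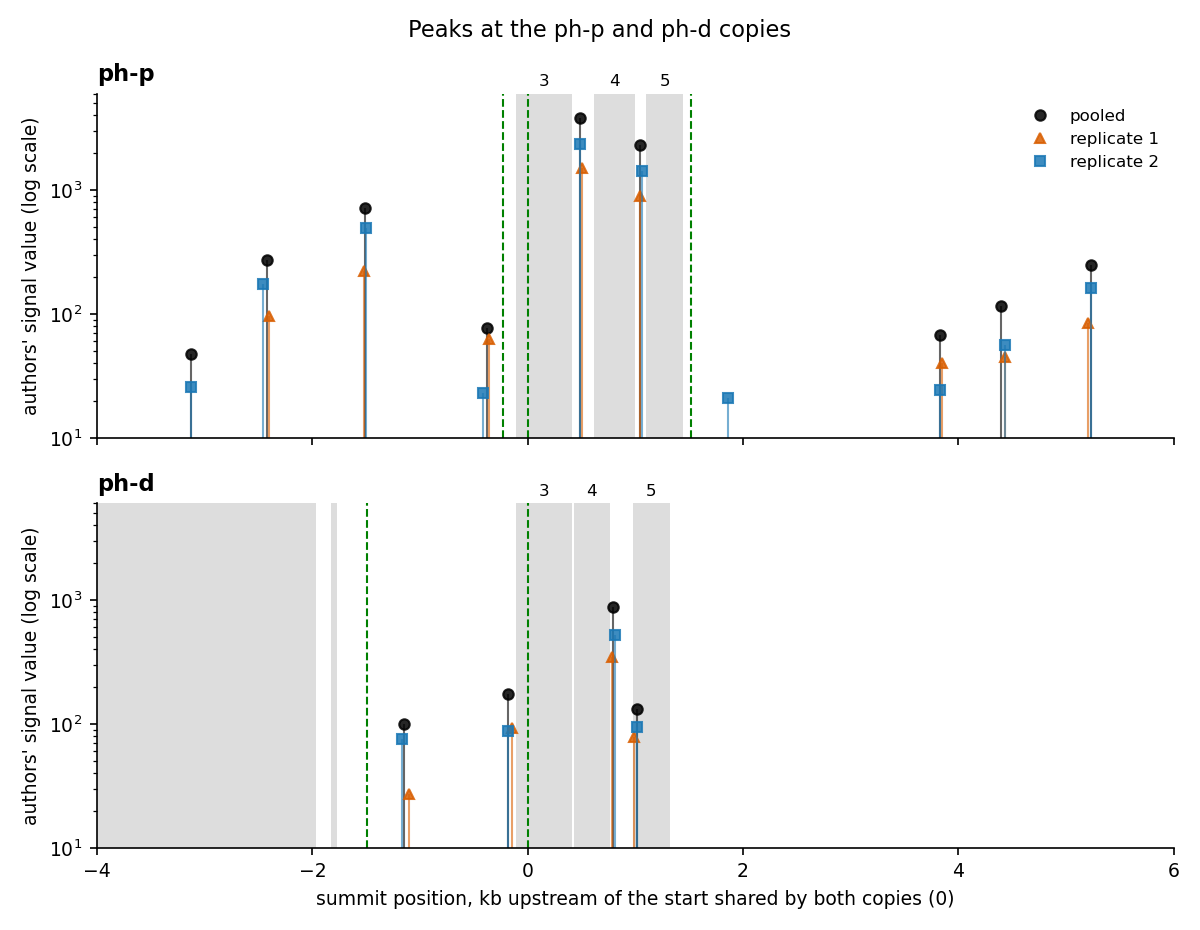
Pooled, replicate 1 and replicate 2 peaks of ph-p (upper panel) and ph-d (lower panel) are drawn at the authors' signal value on a log y axis, against the distance of the summit in kb upstream of the start that the copies share. Grey bands are aligned blocks, numbered where they lie near that start, and dashed lines are annotated starts. The ph-p panel has high peaks with summits at 485 and 1046 bp, between the bands, and the ph-d panel has one at 792 bp. Peak intervals are not drawn.

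Reads from a sequence that occurs at several places in the genome cannot be assigned to 1 of them. Of the 36-base words in the ph-p gene, 32.2% occurred at more than 1 place anywhere in the genome, against 32.5% in ph-d. In ph-p, 2447 of these 3903 words lay in block 1, 71 in block 3 and the rest not within an aligned block. In ph-d all 2447 lay in block 1. The share within block 1 was 56.0% in ph-p and 55.4% in ph-d, and no list had a summit in block 1 of either copy. The peaks themselves lay in sequence that is nearly all unique. The share was 3.91% in the highest ph-p peak (14 of 358 words) and 0% in the other reproducible peaks of ph-p and ph-d. How the authors treated reads that map to several places is not given in the sources used here, and its part in the low and absent peaks was not tested.

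The ph-p side had 3 further reproducible peaks. The peak in a ph-p intron at 2135343 had a signal value of 718 in the pooled list (rank 464), 221 in replicate 1 and 494 in replicate 2. The second intronic peak, at 2134436, had 271 (rank 2214), 96.8 and 174 in the same order. Both lay in the 5244 bp of ph-p between blocks 2 and 3, where ph-d has 1663 bp. The third, at 2142082, had 249.8 (rank 2453), 85.0 and 163, and lay in an intron of the neighbour D2hgdh, a dehydrogenase gene, 593 bp from a D2hgdh start. On the ph-d side, the peak at 2123099 had 173 (rank 3898) in the pooled list, 92.5 in replicate 1 and 87.8 in replicate 2, and lay 187 bp inside the ph-d start. The peak at 2124302 had 133 (rank 5303), 78.1 and 93.6, and shared its interval with the highest ph-d peak. Its summit fell in block 5, at a base aligned with ph-p 2137997. No list had a ph-p summit in block 5, but that base lay inside the interval of the second highest ph-p peak, 2137696-2138108, with its summit at 2137901.

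Pc encodes the chromodomain subunit that reads methylated histone H3, and lies on chromosome 3L at 21306138-21318020, minus strand. Its high peak was not at its own start. That peak, at 21304567, had a signal value of 2450.5 in the pooled list (rank 29), 831 in replicate 1 (rank 42) and 1623 in replicate 2 (rank 28). The summit lay 1571 bp beyond the 3′ end of Pc, 91 bp from a start of CG11309 and 130 bp from the start of CG7632, and these divergent starts are 39 bp apart. The second reproducible peak of Pc, at 21321968, had 161 (rank 4239), 47.9 in replicate 1 and 103 in replicate 2, 413 bp from the start of Rab26, a small GTPase gene. At the start of Pc itself the pooled list had a summit at 21318095, 75 bp upstream, with a signal value of 109 (rank 6622), 51.4 in replicate 1 and 51.3 in replicate 2, and it was not in the reproducible list. No list had a summit inside the Pc gene, in which 76.3% of 36-base words occurred at more than 1 place in the genome. Both reproducible peaks near Pc lay in unique sequence.

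The bases around both Pc summits and around the E(z) summit described further on are given to show the kind of sequence under the peaks, as 101 bp windows on the plus strand of dm6 from RefSeq with E-boxes in capitals.
Pc, rank 29, chr3L:21304517-21304617: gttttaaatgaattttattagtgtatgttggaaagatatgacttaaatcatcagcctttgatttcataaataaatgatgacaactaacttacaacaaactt
Pc, rank 4239, chr3L:21321918-21322018: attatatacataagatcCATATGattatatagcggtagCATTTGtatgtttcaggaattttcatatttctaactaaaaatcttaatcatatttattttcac
E(z), rank 223, chr3L:10637995-10638095: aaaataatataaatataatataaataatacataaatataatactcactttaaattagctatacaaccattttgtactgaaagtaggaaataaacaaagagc
The window of the higher Pc peak had no E-box, and that of the lower one had 2, of which 1 was CATATG. The E(z) window had none and was 18.8% G and C.

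Psc, the RING-finger partner in the complex, and Su(z)2, a related protein with overlapping function, have divergent starts that are 15507 bp apart. A start of another gene, CG33798, lies between them. Psc lies on 2R at 12965997-12980994, minus strand, and Su(z)2 at 12996501-13007911, plus strand. By the 5 kb rule the high peaks of the pair were assigned to Psc alone, which does not show which gene they act on. The highest, at 12985223, lay between the genes, 4229 bp upstream of the outer Psc start, and had a signal value of 1681 in the pooled list (rank 77), 651 in replicate 1 (rank 81) and 1010.8 in replicate 2 (rank 84). An intronic Psc peak at 12975598 had 607 (rank 646), 225 and 375 in the same order. At the inner Psc start, 4 bp from it, the peak at 12980662 had 152 (rank 4508), 61.4 and 90.4. The highest of the 3 thus lay outside the gene, and the start carried the lowest.

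Su(z)2 had only low reproducible peaks. The peak at 12991652 had a signal value of 189 in the pooled list (rank 3509), 72.1 in replicate 1 and 114 in replicate 2. It lay 4849 bp upstream of Su(z)2 and nearer, at 2245 bp, to a start of CG33798. The peak at 13008425 had 135 (rank 5188) in the pooled list and 76.9 in replicate 2, and lay 514 bp beyond the 3′ end. The nearest replicate 1 summit to it had 26.1 (rank 13396), while another replicate 1 summit, at 13008293, had 63.8 (rank 4017). At the starts of Su(z)2 the pooled list had summits at 12997146 (101, rank 7199) and 12996628 (84.6, rank 8839), below the reproducible list. Between the genes lay 3 reproducible summits. One of them, at 12991059, was 5442 bp from Su(z)2, just outside the 5 kb limit, with 147 (rank 4704), while that at 12991652 was just inside it. The remaining pooled peaks of the pair were low. Of 11 pooled peaks near Psc, 3 passed a q of 0.05, and of 12 near Su(z)2, 5 did.

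**Figure D3:**
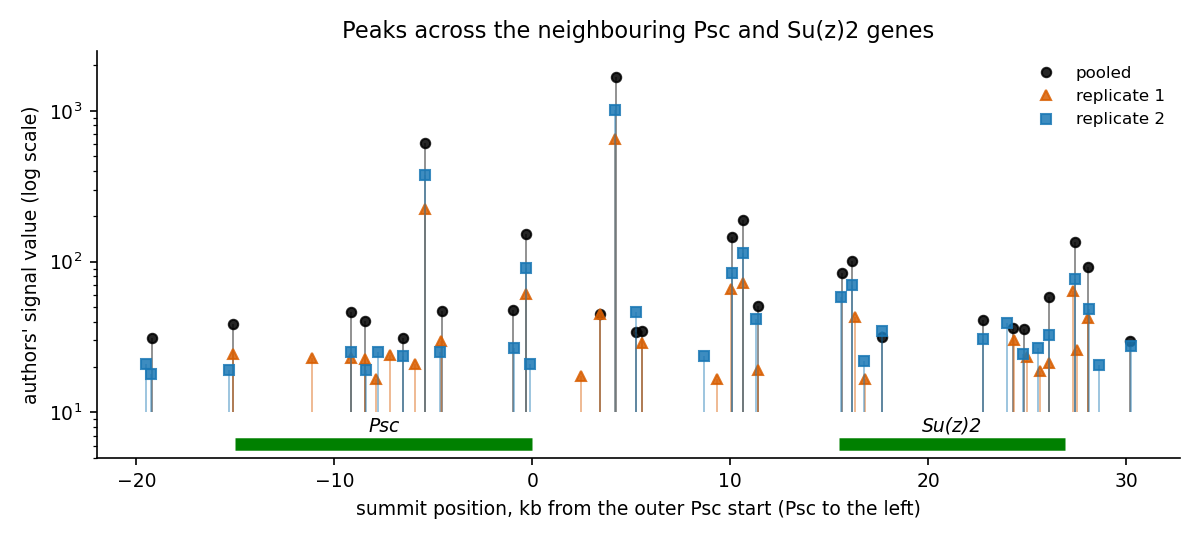
Pooled, replicate 1 and replicate 2 peaks across Psc and Su(z)2 are drawn at the authors' signal value on a log y axis, against the distance of the summit in kb from the outer Psc start, with the genes as green bars. The highest peak stands between the genes at 4229 bp (1681 in the pooled list), and no peak near Su(z)2 exceeds 189. CG33798, which has a start between the genes, is not drawn.

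Sce encodes the RING-finger E3 ligase that ubiquitylates histone H2A, and lies on 3R at 27680431-27682029, minus strand. It had no reproducible peak. The single pooled peak, at 27677543, had a signal value of 106 (rank 6865) and lay 2888 bp beyond the 3′ end, at the start of Hsdl2. Replicate 1 had 3 summits near Sce, the highest with 59.8 (rank 4327), and replicate 2 had 0 among its 30000 peaks. The nearest reproducible summit was 24913 bp away.

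E(z), the histone methyltransferase of Polycomb repressive complex 2, had 1 reproducible peak, and it lay at the gene's own start. It lies on 3L at 10634575-10638130, minus strand. The peak at 10638045 had a signal value of 1039 in the pooled list (rank 223), 458 in replicate 1 (rank 164) and 590.4 in replicate 2 (rank 268). The summit lay 85 bp inside the outer E(z) start and 101 bp from the start of Cnep1r2, and these divergent starts are 16 bp apart, so the peak cannot be assigned to 1 of them. The other pooled peaks near E(z) had 67.6 and 29.5. esc, the WD-repeat subunit that helps the complex bind its methyl mark, had no reproducible peak and lies on 2L at 11827204-11829405, minus strand. Its pooled peaks had 109 (rank 6625), 3630 bp beyond the gene and nearest to a start of Pde1c, and 45.3 (rank 17839), 205 bp beyond the gene. At the esc start itself, 27 bp upstream, there was a summit in replicate 1 alone, with 26.7 (rank 12892). This summit and both pooled ones lay inside the Pde1c gene. The nearest reproducible summit was 10624 bp from esc.

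pho encodes the DNA-binding protein that recruits the complexes, and lies on chromosome 4 at 1172469-1181628, minus strand. No list had a summit in pho or within 5 kb of it. The nearest pooled summit was 17904 bp away and the nearest reproducible one 59132 bp away, at 1113337. Of the 36-base words of pho, 8.55% occurred at more than 1 place in the genome. Scm, a SAM-domain protein that interacts with Ph, lies on 3R at 9633359-9637611, minus strand, and had 1 reproducible peak. That peak, at 9631060, had a signal value of 139.7 in the pooled list (rank 4985) and 108.5 in replicate 1 (rank 2000). The nearest replicate 2 summit had 31.5 (rank 17102), and another, at 9630814, had 98.7 (rank 4538). The reproducible summit lay 2299 bp beyond the 3′ end of Scm and 209 bp from the start of Calr, which encodes the chaperone calreticulin. At the start of Scm the pooled list had a summit with 48.3 (rank 16594).

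By the rank of their highest peak in the pooled list the members ran ph-p, Pc, Psc, E(z), ph-d, Su(z)2, Scm, esc and Sce, the last 2 without a reproducible peak and pho without any. The first 5 kept this order in both replicates without overlap. Their ranks were 7 in both replicates for ph-p, 42 and 28 for Pc, 81 and 84 for Psc, 164 and 268 for E(z), and 282 and 340 for ph-d, each given as replicate 1 and replicate 2. Su(z)2, with ranks of 3440 and 3799, and Scm, with 2000 and 4538, overlapped between replicates and could not be ordered. Nor could esc and Sce, whose order was reversed in replicate 1, with ranks of 8514 and 4327. In replicate 2 esc had rank 6439 and Sce had no peak. All 17 reproducible member peaks had a summit within 100 bp in both replicates. Over the whole reproducible list the shares were 94.5% for replicate 1 and 97.6% for replicate 2. The ratio of replicate 2 to replicate 1 signal value had a median of 1.58 over the 17 peaks, with a range of 0.290 to 2.94. Over 5197 reproducible peaks matched in both, the median was 1.70 and the range 0.0975 to 8.36. From the 5th to the 95th percentile the ratios ran from 0.818 to 2.37 for the members and from 1.03 to 3.02 for all. Of the 17, the lowest ratio belonged to the Scm peak and the highest to the Su(z)2 peak at 13008425. Both rest on the nearest summit, although a higher one lay farther off. For Scm it was in replicate 2 at 9630814 (98.7), and for Su(z)2 in replicate 1 at 13008293 (63.8). Of the 55 pooled peaks, 30 had a summit within 100 bp in both replicates (54.5%), against 41.3% of the whole pooled list. For the 38 member peaks below the reproducible list the share was 34.2%, against 29.5% of all such peaks.

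**Figure D4:**
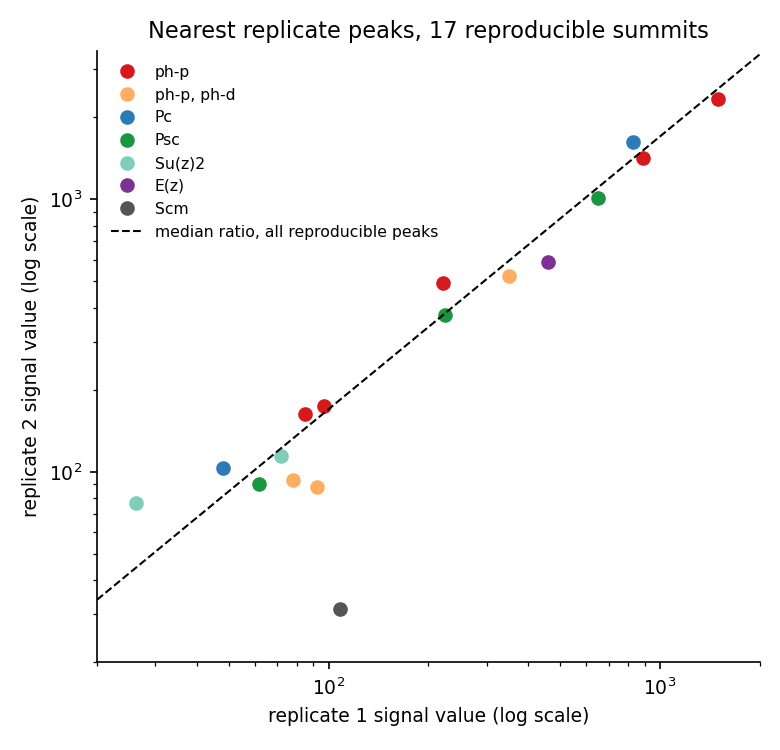
Each of the 17 reproducible member peaks is a point at the signal value of the nearest replicate 1 summit (x axis) and of the nearest replicate 2 summit (y axis), both on log scales, with colours for the genes. Most points lie near the dashed line, the median ratio of 1.70 over all reproducible peaks, and the Scm point lies far below it, at 108.5 and 31.5. A higher replicate 2 summit near Scm, at 9630814 with 98.7, is not the nearest and is not drawn.

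By annotation, 8 of the 17 reproducible summits lay within 500 bp of a protein-coding start, 5 were intergenic and 4 intronic. The nearest start belonged to a member for 12 of the 17 and to a neighbour for 5. Those neighbours were CG11309 and Rab26 at Pc, Calr at Scm, D2hgdh at ph-p and CG33798 at Su(z)2. The shares by annotation and by nearest start were not computed over the whole reproducible list, so neither was read as particular to the members. The reproducible summits farthest from a member but inside the 5 kb limit lay 4849 bp from Su(z)2 (189), 4229 bp from Psc (1681), 3948 bp from Pc (161) and 3711 bp from ph-p (249.8). The nearest ones outside it lay 5442 bp from Su(z)2 (147), 6113 bp from Scm (152), 6553 bp from Psc (407) and 7815 bp from ph-p (134).

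Short motifs were searched on both strands of the 101 bp windows around the 17 summits and around all 5636 reproducible summits. An E-box, CANNTG, was in 5 of the 17 windows (29.4%), against 33.9% of all windows. The 5 windows belonged to peaks of Psc, Su(z)2, Pc, ph-d and ph-p, 1 each. With 100 bp either side of the summit, 10 of the 17 had one. The share over all windows of that larger size was not computed, so 33.9% is not its background. Of the E-box forms, CATATG was in 1 window (5.88%), against 3.83% of all, and CAGCTG in 0, against 3.55% of all. GAGAG, a site of GAGA factor, was in 2 windows (11.8%), against 8.96% of all. The window at the inner Psc start held 4 copies of GAGAG, and the Su(z)2 window at 12991652 held 1. GCCAT, the core of the Pho site, was in 1 window (5.88%), against 13.1% of all. TATAAA was in 6 windows (35.3%), against 24.3% of all. The promoter motifs TATCGATA (DREF) and GGTCACACT (Motif 1) were in 0 of the 17, against 1.51% and 0.532% of all. G and C made up 28.8% ± 8.05 of the member windows (SD, n = 17 peaks), against 32.8% ± 9.29 (n = 5636 peaks). With 17 windows, many of them near the same gene, these counts are descriptions.

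The wider Polycomb system and its Trithorax counterpart, whose proteins keep the same target genes active, were counted in the same way. Of 18 other Polycomb genes, 12 had a reproducible summit (66.7%), and 17 had a pooled one. Of 22 Trithorax genes, 16 had a reproducible summit (72.7%), and 20 had a pooled one. These shares stand beside 54.0% and 80.8% of all genes. Among the other Polycomb genes the highest pooled peaks were near Caf1-55 (4101, rank 6), phol (2035, rank 48), Kdm2 (1353, rank 130) and Dsp1 (1053, rank 217), and sxc had no pooled peak. Caf1-55 encodes a histone-binding subunit of Polycomb repressive complex 2 and phol a relative of Pho. The start nearest to the Caf1-55 peak was that of mRpS10, and the one nearest to the phol peak that of CG3552. The Dsp1 peak lay 562 bp upstream of Dsp1 and 550 bp from the start of CG9921, and the Kdm2 peak lay inside Kdm2. Among the Trithorax genes the highest were near ash1 (5902, rank 1), Trl (3371, rank 10), trx (1788, rank 65) and brm (1715, rank 74), and vtd and Set1 had no pooled peak. ash1 and trx encode histone methyltransferases, Trl the GAGA factor, and brm a chromatin-remodelling ATPase. The ash1 peak, the highest of the pooled list, lay 97 bp from the start of CG14100, and the brm peak lay nearest to the start of Arl1. The peaks of Trl and trx lay inside those genes.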

How the data were processed

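The authors deposited narrowPeak lists on dm6: 1 for each of 2 biological replicates, 1 pooled and 1 thresholded by the irreproducible discovery rate. Each peak carries the authors' signal value, whose scale is not stated, and a deposited −log10 q-value (all reproducible peaks have 4.09). Per the deposited file descriptions, the replicates share 1 control alignment. Aligner and peak caller: not given in the sources used here. Chromatin was sonicated to 200 to 800 bp, per the labels. Read depth is unknown.

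Summits were joined to Ensembl release 115 genes (BDGP 6.54). The ph copies were aligned with blastn 2.17.0 (e-value 1e-05). Words of 36 bases, a length chosen because the read length is not given, were counted in the RefSeq genome on both strands. Features, motifs and ratios were computed with Python 3.11.15, numpy 2.4.6 and pandas 2.3.3, after a check on simulated data, and drawn with matplotlib 3.10.9. No test was made. A promoter is within 500 bp of a protein-coding start. A summit matched within 100 bp. A q of 0.05 is 1.301 as −log10.

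The members and lists were chosen with earlier results of these data known. Every member, every reproducible peak near one, and in each other list the 4 genes with the highest pooled peaks and those with none are named. Alternatives changed distances, peak lists, matching, word lengths and windows.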

Additional observations from a re-analysis of the deposited data

How the results depend on the processing

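The count of 7 members with a reproducible summit was 5 within 1 kb, 6 within 2 kb, 7 within 10 kb, 5 with the 2818 highest reproducible peaks and 5 when a summit counted only for the nearest start. It was 4 when a start had to lie within 1 kb. In its place, the 5636 highest peaks of a single replicate gave 7 to 8 members, and Sce was added when replicate 2 was left out. Over all genes the shares were 33.4% within 1 kb, 39.9% within 2 kb and 68.0% within 10 kb. They were 37.1% with the 2818 highest peaks, 26.0% by nearest start and 26.2% within 1 kb of a start. With the 5636 highest peaks of a single replicate they were 54.3% without replicate 1 and 53.2% without replicate 2. Within 1 kb there were 10 reproducible, 30 pooled, 32 replicate 1 and 35 replicate 2 peaks near members. Within 2 kb there were 34 pooled and 34 replicate 1 peaks, and within 10 kb 88 pooled peaks. With q of at most 0.05 there were 30 pooled, 28 replicate 1 and 38 replicate 2 peaks. The ph-p to ph-d ratio ran from 4.29 to 4.47 when 1 replicate was left out. With words of 50 and 100 bases, the words found at more than 1 place in the genome made up 30.2% and 25.7% of ph-p and 30.4% and 24.8% of ph-d. In windows of 25 bp either side, 0 held GAGAG, 0 GCCAT, 0 CATATG, 2 an E-box and 3 TATAAA. In windows of 100 bp either side, 4 held GCCAT, 10 an E-box and 1 CAGCTG. Shares over all reproducible windows of these 2 sizes were not computed, so nothing was read from these counts. Of the other Polycomb genes 7 had a summit within 1 kb and 6 by nearest start, and of the Trithorax genes 9 by nearest start; these alternatives were chosen after seeing the data. The other 39 alternatives moved counts by at most 1.5 times, or the ratio by less than the spread between replicates. No paired analysis was possible because the replicates belong to 1 group.

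Depth is unknown, so a gene without a peak cannot be told from one whose peak fell below detection. The lists were cut at 30000 peaks. No untagged line was analysed. Summits near divergent starts cannot be assigned to 1 gene. A peak near a gene does not show that the gene is regulated.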
